A study of Mus musculus with 12 samples.

Results

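The Lce1 genes encode late cornified envelope proteins of the first subfamily. Every probe that the array's annotation gives to Lce1a2, Lce1b, Lce1c, Lce1d, Lce1f, Lce1g, Lce1i, Lce1l or Lce1m was taken, which gave 9 probes, 1 for each of the 9 genes. The array held 25697 probes and 16593 named genes in all. All 9 probes were bright enough to enter the tests, with 7 detected on all 12 arrays and 2 (Lce1i and Lce1l) on 11. Another 5 Lce genes on the array (Lce1e, Lce1h, Lce3a, Lce3b and Lce3c, with 8 probes) served for comparison.

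RNA came from the back skin of C57BL/6 mouse embryos at E18.5, the embryonic day shortly before birth. There were 4 groups of 3 arrays: the type I keratin knockout, the wild type labelled for it (wild type I), the type II keratin knockout and the wild type labelled for it (wild type II). Keratin filaments form from pairs of a type I and a type II protein, so loss of either type leaves the other without partners. The labels name no single keratin gene, promoter or Cre. They do not say whether each array was a separate embryo, so all tests rest on variation between arrays that could be technical.

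The cornified envelope is the protein shell that replaces the plasma membrane of a keratinocyte as it dies to form the outermost layer of the skin. Transglutaminases crosslink its precursors: first scaffold proteins such as involucrin and periplakin, then loricrin and small proline-rich (SPRR) proteins, and late in the process the LCE proteins, which are small and rich in glycine, serine and cysteine. Most of these precursors are encoded side by side in the epidermal differentiation complex. In human skin, LCE1 genes are expressed in normal epidermis, whereas LCE3 genes are induced after barrier injury and in psoriasis.

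Detected probes numbered 13272 to 13693 per array, and the median deposited signal lay between 107 and 150. Correlations between arrays were 0.962 to 0.991 within groups and 0.884 to 0.984 between groups, and the type II knockout arrays were the least alike within their group. Keratins were used to check the genotype labels. In the type I knockout Krt14, a keratin of the basal layer, was reduced at least 583-fold (adjusted p = 4.27e-14), and in the type II knockout its partner Krt5 was reduced at least 50.4-fold (1.54e-08). The tissue label was checked on 11 measured keratinocyte markers. The log2 of their summed signal was 14.25 to 14.43 in wild type I and 14.99 to 15.17 in the type I knockout. In wild type II it was 14.33 to 14.65, and in the type II knockout 15.03 to 15.31.

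Promoter sequences show how alike most members are and where Lce1l and Lce1m stand apart. RefSeq promoters (mouse build GRCm38.p6, 250 bases before to 50 after the transcription start) matched 8 of the 9 members; Lce1f is named only. The stretch from 75 to 11 bases before the start is printed 5′ to 3′ on the gene's own strand. It holds ATAAAAGG, the most widely shared of the longest exact words found in at least 6 of the 8 promoters. Capitals mark that word, or its first part ATAAAA where the whole word is absent.
Lce1a2 (chr3:92670326-92670390, minus strand): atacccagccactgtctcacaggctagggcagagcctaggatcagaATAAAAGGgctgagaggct
Lce1b (chr3:92656937-92657001, minus strand): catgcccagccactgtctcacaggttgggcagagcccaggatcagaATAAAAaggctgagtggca
Lce1c (chr3:92679172-92679236, plus strand): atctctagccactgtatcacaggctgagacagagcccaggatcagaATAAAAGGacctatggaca
Lce1d (chr3:92687221-92687285, minus strand): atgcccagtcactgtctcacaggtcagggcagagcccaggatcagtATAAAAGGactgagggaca
Lce1g (chr3:92752349-92752413, minus strand): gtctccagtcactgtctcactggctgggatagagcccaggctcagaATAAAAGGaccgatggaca
Lce1i (chr3:92778910-92778974, minus strand): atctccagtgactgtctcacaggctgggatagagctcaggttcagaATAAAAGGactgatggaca
Lce1l (chr3:92851297-92851361, minus strand): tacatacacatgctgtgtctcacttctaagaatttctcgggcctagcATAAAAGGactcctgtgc
Lce1m (chr3:93019072-93019136, minus strand): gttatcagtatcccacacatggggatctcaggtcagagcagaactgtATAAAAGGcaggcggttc

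The word ATAAAAGG stood 28 or 29 bases before the start in 7 of the 8 member promoters, all but that of Lce1b. Counted at any place in the 300 bases and on either strand, it was in 577 of all 32851 RefSeq promoters (1.76%). It was picked after these promoters were seen, so its count describes them and tests nothing. The shorter ATAAAA was in all 8 and in 6069 of the 32851. Among the 6 Lce3 promoters, ATAAAAGG was in 3 (Lce3d, Lce3e and Lce3f, not measured here) and ATAAAA in 6. Over the 300 bases, the 6 members other than Lce1l and Lce1m were 67.0% to 86.0% identical in pairs (median 71.7%), Lce1l matched those 6 at 60.0% to 61.0%, and Lce1m matched them at 60.7% to 62.7%. Lce1l and Lce1m were 62.3% identical to each other. Some Lce1 promoters outside the members were as like them: that of Lce1g was 86.3% identical to Lce1h and 82.0% to Lce1e. Others were less so, with Lce1k 61.3% identical to Lce1c. Of all 13 Lce1 promoters, ATAAAAGG was in 10. These include Lce1e and Lce1h, which were near background and not called lower in either knockout. The same stretch is printed for the 3 measured Lce3 genes, which rose in both knockouts and carry the shorter word.
Lce3a (chr3:92926241-92926305, minus strand): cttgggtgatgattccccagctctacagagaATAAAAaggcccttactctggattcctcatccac
Lce3b (chr3:92932904-92932968, plus strand): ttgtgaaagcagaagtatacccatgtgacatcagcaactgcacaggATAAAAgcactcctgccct
Lce3c (chr3:92944411-92944475, plus strand): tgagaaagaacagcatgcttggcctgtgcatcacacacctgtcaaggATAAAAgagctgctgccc
The Lce3 promoters were 62.7% to 86.0% identical among themselves and 57.3% to 65.3% identical to the members. Promoters of unrelated genes were not aligned, so the identity that this alignment gives without likeness is not known. Other motifs were searched on both strands of the 300 bases. The TATA box TATAAA, which overlaps ATAAAA, was in 2 of 8 members (Lce1d and Lce1m), in 1 of the 6 Lce3 promoters and in 13.6% of all promoters. The AP-1 site TGANTCA was in 0 of 8 members, 0 of 6 Lce3 promoters and 7.81% of all, and the antioxidant response element core TGACNNNGC was in 1 of 8 (Lce1d), in 3 of the 6 Lce3 promoters and in 12.4% of all promoters. The Kruppel-like factor box CACCC was in 2 of 8 members, 2 of 6 Lce3 promoters and 57.5% of all, and the Grainyhead-like core AACCNG in 5 of 8, 5 of 6 and 39.4%.

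All 9 Lce1 members fell in the type II keratin knockout, from 2.84-fold for Lce1g to 76.8-fold for Lce1m. Levels below are log2 of the background-corrected, quantile-normalized signal, given for replicates 1, 2 and 3. A gene is called changed where its adjusted p, over all 11163 genes and unnamed probes tested with limma, is below 0.05. At that threshold 21.8% of everything tested was lower in this knockout, against 9 of 9 members. The members were chosen with earlier results of these data known, so this count and those below describe them and test nothing. Of the measured Lce1 genes outside the members, Lce1e was not called (-0.33 ± 0.16, adjusted p = 0.132). Lce1h was not detected in this knockout or its wild type. The median change of the members was -3.36, and that of everything tested was -0.08.

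Lce1m, the most distant of the members along the chromosome, was read at 14.03, 13.08 and 14.10 in wild type II and at 8.15, 6.55 and 7.72 in the type II knockout. It fell by 6.26 ± 0.41 (SE, n = 3 against 3; adjusted p = 1.07e-06), the fourth-deepest fall of everything tested. In the deposited signal, before normalization, it went from 14015, 8190 and 16103 to 352, 149 and 233, with no overlap.

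Lce1i and Lce1c came next, each about 17-fold lower. Lce1i was at 10.38, 9.44 and 10.45 in wild type II and at 7.05, 4.87 and 5.95 in the knockout, where 2 of 3 arrays detected it, and fell by 4.13 ± 0.47 (adjusted p = 5.83e-05). Lce1c, a neighbour of Lce1a2 and Lce1d, was at 13.57, 12.74 and 13.29 in wild type II and at 10.23, 8.77 and 8.32 in the knockout. It fell by 4.10 ± 0.39 (adjusted p = 1.89e-05). For both genes every knockout array lay below every wild-type array.

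Lce1a2, Lce1b and Lce1l fell about 10-fold. Lce1a2 was at 12.17, 11.42 and 12.18 in wild type II and at 9.66, 8.22 and 7.64 in the knockout (fell by 3.42 ± 0.40, adjusted p = 7.23e-05). Lce1b was at 12.98, 12.48 and 13.12 against 10.56, 9.26 and 8.68 (fell by 3.36 ± 0.37, adjusted p = 4.86e-05). Lce1l, the last gene of the main Lce1 run, was at 9.80, 8.66 and 9.71 against 7.59, 4.60 and 6.06 and was detected on 2 of 3 knockout arrays (fell by 3.31 ± 0.59, adjusted p = 0.00122). The groups did not overlap for any of these genes, and the spread among knockout arrays was wider than among wild types.

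The shallowest falls were those of Lce1f, Lce1d and Lce1g. Lce1f was at 11.99, 11.23 and 11.82 in wild type II and at 9.74, 8.45 and 8.45 in the knockout (fell by 2.80 ± 0.32, adjusted p = 6.44e-05). Lce1d was at 12.72, 12.06 and 12.71 against 11.68, 8.98 and 9.70 (fell by 2.38 ± 0.50, adjusted p = 0.00330), with its highest knockout array just under the lowest wild type. Lce1g was at 9.91, 8.89 and 9.64 against 8.99, 7.13 and 7.81 (fell by 1.51 ± 0.40, adjusted p = 0.0110). Lce1g was thus the only member whose groups overlapped, by 1 knockout array above 1 wild-type array.

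In all, 8 of 9 members had every type II knockout array below every wild type II array, against 29.3% of everything tested, and 8 of 9 were among the 100 deepest falls. The same 8 had these arrays below all 9 other arrays, which held for 7.95% of everything tested. In bulk skin, fewer cells that make a transcript and less of it per cell cannot be told apart.

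**Figure D1:**
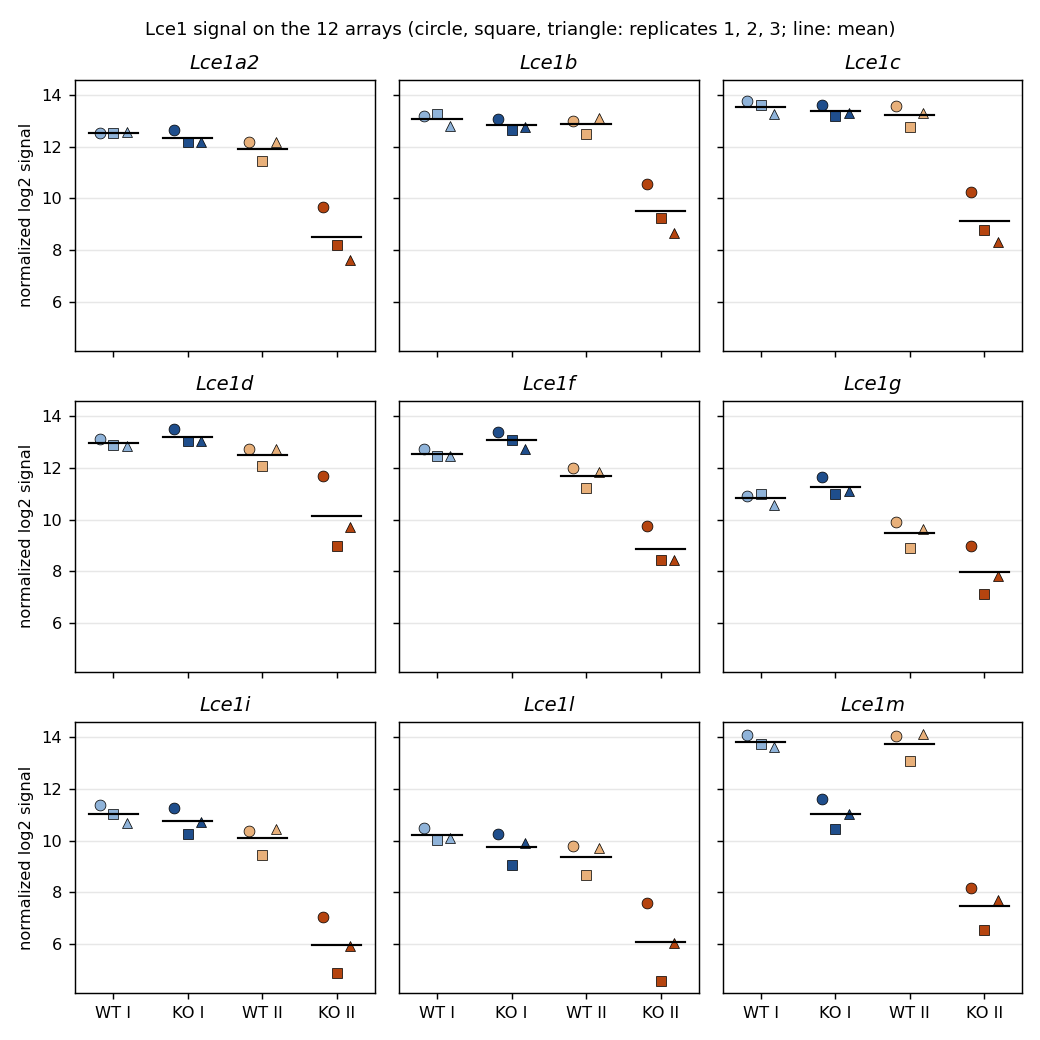
Normalized log2 signal (vertical axes) of each of the 9 Lce1 genes on the 12 arrays, by group (WT, wild type; KO, keratin knockout), with circles, squares and triangles for replicates 1, 2 and 3 and a line at the group mean. The type II knockout arrays lie lowest in every panel apart from the single overlap in Lce1g, and Lce1m alone is also clearly lower in the type I knockout.

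In the type I keratin knockout, Lce1m fell and no other member was called. Lce1m was at 14.09, 13.75 and 13.63 in wild type I and at 11.62, 10.45 and 11.03 in the knockout, with no overlap (28.5% of everything tested was lower without overlap). It fell by 2.79 ± 0.41 (6.93-fold, n = 3 against 3; adjusted p = 0.000521), the ninth-deepest fall of everything tested. In the deposited signal it went from 19165, 15215 and 13355 to 2820, 1530 and 3111. Among everything tested, 15.6% was called lower and 12.2% higher in this knockout, against 1 and 0 of the 9 members.

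The other 8 members had changes between -0.46 and 0.53, with adjusted p from 0.239 to 0.780. Lce1c, for example, was at 13.75, 13.62 and 13.24 in wild type I and at 13.62, 13.17 and 13.30 in the knockout, a change of -0.17 ± 0.39. Lce1a2 was at 12.51, 12.54 and 12.58 against 12.63, 12.16 and 12.19, and Lce1b at 13.19, 13.25 and 12.80 against 13.07, 12.65 and 12.77. The arrays of the groups overlapped for these 3 genes.

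Lce1f and Lce1g lay higher on all 3 knockout arrays than on any wild type I array, a pattern that 18.4% of everything tested showed in that direction. Lce1f was at 12.70, 12.44 and 12.44 against 13.39, 13.06 and 12.73 (change 0.53 ± 0.32, adjusted p = 0.239). Lce1g was at 10.90, 10.97 and 10.57 against 11.65, 10.98 and 11.11 (change 0.44 ± 0.40, adjusted p = 0.447). Neither change passed the test.

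The remaining 3 members overlapped between the groups. Lce1d was at 13.11, 12.88 and 12.82 against 13.50, 13.04 and 13.04 (change 0.25 ± 0.50). Lce1i was at 11.38, 11.03 and 10.69 against 11.26, 10.26 and 10.74 (change -0.28 ± 0.47). Lce1l was at 10.49, 10.04 and 10.10 against 10.27, 9.07 and 9.91 (change -0.46 ± 0.59).

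The 95% intervals of the 8 uncalled members allow changes of limited size, not none: that of Lce1f ran from -0.17 to 1.23 and that of Lce1l, the widest to the low side, from -1.75 to 0.84. The interval of Lce1m, -3.68 to -1.90, lay below all 8.

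**Figure D2:**
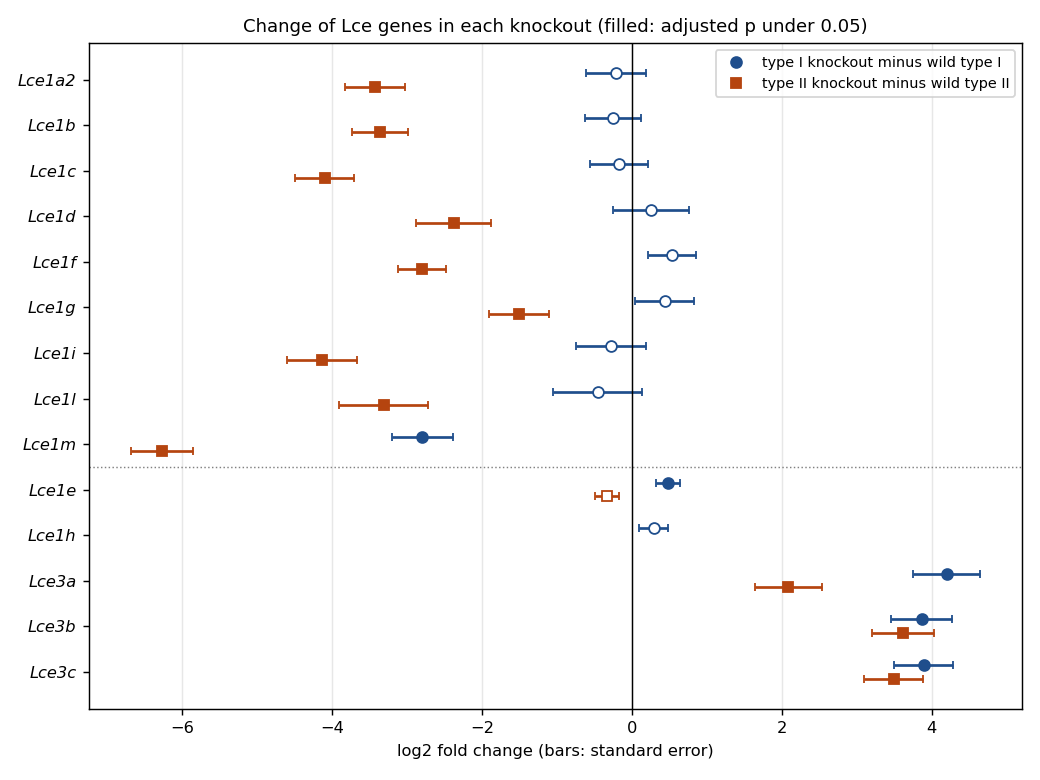
Log2 fold change (horizontal axis, bars are standard errors) of the 9 Lce1 genes and, below the dotted line, the other 5 Lce genes, in the type I (circles) and type II (squares) knockout against its own wild type, with filled symbols where the adjusted p was under 0.05 and none where neither group detected the gene. The 9 type II squares of the Lce1 genes lie between -6.26 and -1.51, the type I circles of all but Lce1m lie between -0.46 and 0.53, and the Lce3 symbols lie between 2.09 and 4.20.

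The difference between the knockouts was tested as the change in type II minus the change in type I. It passed for 6 of 9 members, all lower in type II, where 1.85% of everything tested was called lower. The differences were -3.92 ± 0.56 for Lce1c (adjusted p = 0.00279), -3.85 ± 0.66 for Lce1i (0.00905), -3.47 ± 0.58 for Lce1m (0.00751), -3.33 ± 0.45 for Lce1f (0.00243), -3.21 ± 0.56 for Lce1a2 (0.0103) and -3.11 ± 0.52 for Lce1b (0.00792). Lce1m, the member that fell in both knockouts, thus differed between them by about as much as the others. Lce1l, Lce1d and Lce1g had differences of -2.85 ± 0.84, -2.63 ± 0.71 and -1.94 ± 0.56 that did not pass (adjusted p = 0.102, 0.0759 and 0.0971). Without type II knockout replicate 1 these 3 passed too (0.0138, 0.000588 and 0.0134). Such a difference was not particular to the members. Of 21 other measured genes of the epidermal differentiation complex, 8 were called lower and 0 higher (median difference -1.28). Among the 8, named after their values were seen, were Hrnr (-4.87 ± 0.94), Lor (-4.63 ± 0.92), Rptn (-4.36 ± 0.94) and Flg2 (-3.57 ± 0.75).

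Each knockout was measured against its own wild type, and the Lce1 means of the wild types differed without a call. All 9 members had lower means in wild type II than in wild type I, by 0.08 for Lce1m (a sign that turned without wild type I replicate 1 or wild type II replicate 2) to 1.33 for Lce1g. The median change of everything tested was 0.01. Members moved together from array to array, as described below, so the 9 are not separate observations. None was called with limma (adjusted p from 0.126 to 0.941), where 0.932% of everything tested was called lower. The arrays did not overlap for 6 members (Lce1a2, Lce1d, Lce1f, Lce1g, Lce1i and Lce1l), against 13.1% of everything tested. For Lce1g, which was at 10.81 ± 0.22 (SD, n = 3) in wild type I and 9.48 ± 0.53 in wild type II, the call appeared without type II knockout replicate 1 (adjusted p = 0.0405). All 9 members were lower on every type II knockout array than on any type I knockout array, as was 16% of everything tested.

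Members moved together from array to array within groups. In the type II knockout, all 9 were highest in replicate 1, by 1.02 (Lce1m) to 2.34 (Lce1d) over the mean of replicates 2 and 3, whereas 31.1% of everything tested was highest there. In the type I knockout all 9 were again highest in replicate 1 (29.6% of everything tested), and in wild type II all 9 were lowest in replicate 2 (32.1%). Without type II knockout replicate 1, the 9 falls were between 2.01 (Lce1g) and 6.60 (Lce1m), all still called. Over the 36 pairs of members, the median Pearson correlation across the 12 arrays was 0.951 (0.635 to 0.997), and with each group's mean removed it was 0.869 (0.565 to 0.978). These are descriptions: the pairs share arrays, and probe sequences were not used here, so how far related Lce1 transcripts bind each other's probes was not tested.

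**Figure D3:**
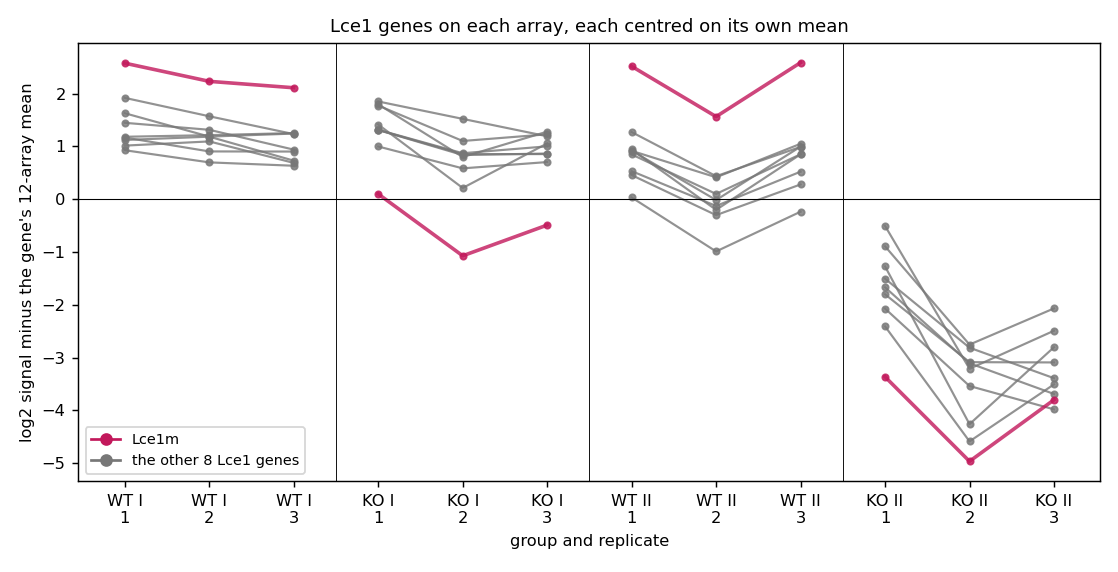
Log2 signal of each Lce1 gene on each array minus that gene's mean over the 12 arrays (vertical axis), by group and replicate, with lines joining the points of a gene within a group and implying no order. Within a group most lines go up and down together, with wild type II replicate 2 lowest and type II knockout replicate 1 highest of their groups for all 9 genes, and Lce1m (red) drops below the other 8 in the type I knockout.

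None of the other 5 measured Lce genes was called lower in either knockout, while 4 were called higher in type I and 3 in type II. Of everything tested, 12.2% was called higher and 15.6% lower in type I, and 15.6% and 21.8% in type II. Lce1e and Lce1h were near background, and no array of the type II knockout or its wild type detected Lce1h. Lce1e changed by 0.48 ± 0.16 in type I (adjusted p = 0.0460, a call lost under 11 of 22 alternatives) and by -0.33 ± 0.16 in type II (0.132). Lce1h changed by 0.29 ± 0.20 in type I (0.290).

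The 3 Lce3 genes rose in both knockouts. Lce3c was at 8.65, 8.35 and 9.22 in wild type I and at 12.52, 12.57 and 12.79 in the type I knockout (rose by 3.89 ± 0.40, adjusted p = 3.48e-05). It was at 8.68, 6.90 and 7.60 in wild type II and at 11.33, 10.61 and 11.71 in the type II knockout (rose by 3.49 ± 0.40, adjusted p = 6.16e-05). Lce3b rose by 3.86 ± 0.41 and 3.62 ± 0.41 on its brightest probe (4.79e-05 and 6.10e-05). Its other probes rose as well, by unlike amounts that are given at the end. Lce3a, detected on 1 of 3 arrays of each wild type, rose by 4.20 ± 0.45 and 2.09 ± 0.45 (4.79e-05 and 0.00347). Among everything tested, 15.6% was called higher in the type II knockout.

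Gene order on chromosome 3, from RefSeq, places these results. The table holds 14 Lce1 genes, of which 13, with 8 of the members, lie from Lce1a1 to Lce1l with Kprp as the other protein-coding gene among them. Lce1m stands apart, beyond 8 protein-coding genes, 6 of which are Lce3 genes. The whole promoters of Lce1c, from the run, and of Lce1m are printed with ATAAAAGG in capitals, as a member with an uncalled change in the type I knockout beside the one that fell.
Lce1c (chr3:92678997-92679296, plus strand): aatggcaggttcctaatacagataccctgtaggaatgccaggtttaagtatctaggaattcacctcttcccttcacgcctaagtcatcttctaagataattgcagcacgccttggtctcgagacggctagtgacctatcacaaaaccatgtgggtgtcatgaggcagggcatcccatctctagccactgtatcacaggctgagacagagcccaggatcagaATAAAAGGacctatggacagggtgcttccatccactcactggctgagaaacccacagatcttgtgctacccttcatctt
Lce1m (chr3:93019012-93019311, minus strand): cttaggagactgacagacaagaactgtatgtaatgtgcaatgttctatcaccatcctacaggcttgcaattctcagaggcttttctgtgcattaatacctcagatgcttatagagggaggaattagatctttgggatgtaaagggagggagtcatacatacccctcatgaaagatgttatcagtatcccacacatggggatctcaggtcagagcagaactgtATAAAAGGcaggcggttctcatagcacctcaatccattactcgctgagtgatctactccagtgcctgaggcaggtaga
On the far side of Lce1m lie Flg2 and Hrnr, genes of filaggrin-like proteins of the cornified layer. Flg2 was the other measured gene of the complex that fell in the type I knockout (by 1.83 ± 0.53, adjusted p = 0.0248), a call lost under 5 of 22 alternatives. It was lost without wild type I replicate 1 or 2, without type I knockout replicate 2 or 3, and with no filter on dim probes.

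**Figure D4:**
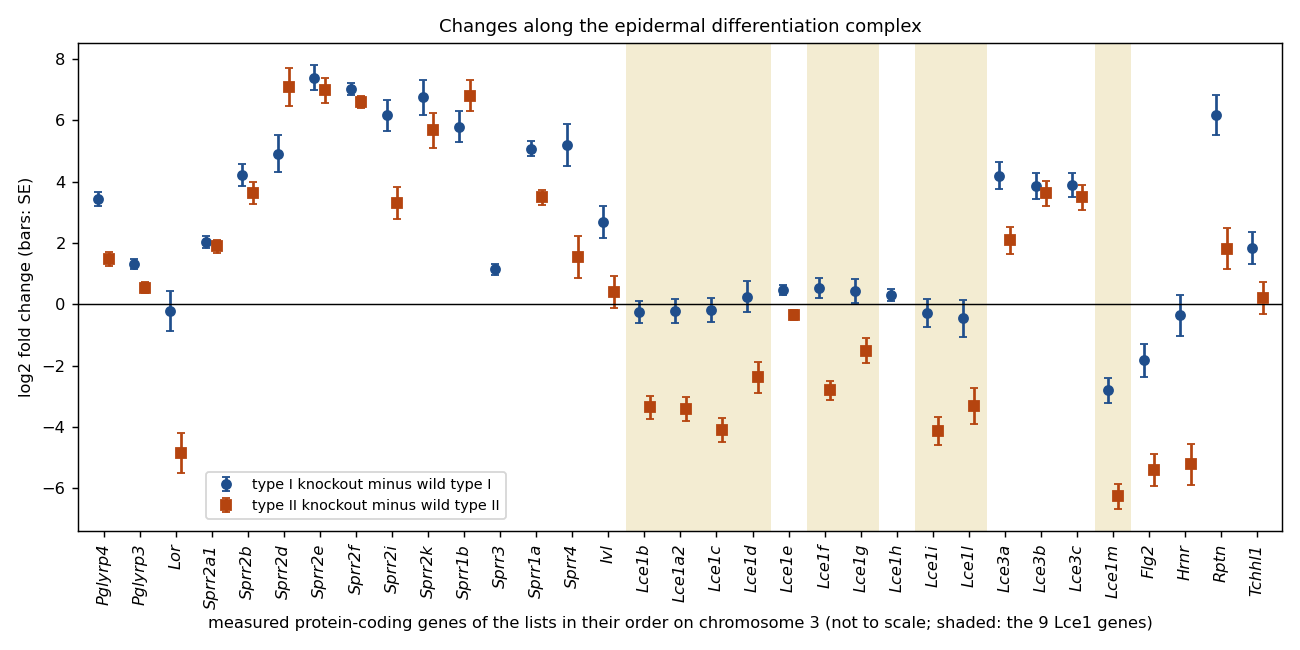
Log2 fold change (vertical axis, bars are standard errors) of the measured protein-coding genes of the lists in chromosomal order (horizontal axis, not to scale), with the 9 Lce1 genes shaded, for the type I (circles) and type II (squares) knockouts, leaving out a symbol where neither group detected the gene. The Sprr and Lce3 genes lie above 0 in most places, the squares of the Lce1 genes, Lor, Flg2 and Hrnr lie below it, and the circles of Lce1m and Flg2 are the lowest in type I.

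Most other measured genes of the complex rose in each knockout. Of 33 listed, 21 were measured: in type I 18 rose and 1 fell (median change 4.22), and in type II 14 rose and 3 fell (median 1.89), against 12.2% higher and 15.6% lower of everything tested in type I and 15.6% and 21.8% in type II. The small proline-rich Sprr2f, undetected in wild type, rose at least 83.6-fold in type I and at least 66.0-fold in type II (adjusted p = 6.29e-10 and 2.91e-09), and Sprr2g, a transcribed pseudogene in RefSeq, at least 334-fold and 167-fold (4.66e-12 and 8.17e-11). Sprr1a rose by 5.08 ± 0.24 in type I (adjusted p = 6.19e-08), and Sprr2e rose at least 84.6-fold in type II (5.48e-07). Sprr2j-ps, another pseudogene, rose at least 4.84-fold and 4.63-fold (8.81e-08 and 2.17e-07).

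The 3 that fell in type II, named after their values were seen, were Lor, Flg2 and Hrnr. Lor encodes loricrin, the main protein of the envelope by mass. Lor was at 14.40, 14.32 and 14.32 in wild type II and at 9.14, 11.59 and 7.79 in the knockout (fell by 4.84 ± 0.65, adjusted p = 0.000205). Flg2, detected on 1 of 3 knockout arrays, went from 10.75, 8.97 and 10.98 to 4.70, 5.36 and 4.44 (fell by 5.40 ± 0.53, 2.27e-05). Hrnr went from 12.75, 11.10 and 12.64 to 6.45, 8.78 and 5.60 (fell by 5.22 ± 0.67, 0.000136).

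All 3 had every type II knockout array below every wild type II array, as had most Lce1 genes and 29.3% of everything tested. They were picked by their call in that same comparison, so this adds little to it. In type I, Lor changed by -0.21 ± 0.65 and Hrnr by -0.35 ± 0.67 (adjusted p = 0.840 and 0.732), both within the range of the 8 uncalled Lce1 members.

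Of 16 listed genes of envelope crosslinkers, the envelope scaffold and the granular layer, 13 were measured. In type I, 9 rose and 0 fell (median 1.13), and in type II, 3 rose and 2 fell (median 0.11). Of everything tested, 12.2% was higher and 15.6% lower in type I, and 15.6% and 21.8% in type II, so the type II counts of this list lie near the background. Tgm1, the main envelope transglutaminase, rose by 1.94 ± 0.23 in type I and by 2.61 ± 0.23 in type II (adjusted p = 0.000116 and 1.02e-05). Cnfn (cornifelin, an envelope component) rose by 3.73 ± 0.25 and 2.53 ± 0.25. In type I, Ppl (periplakin) rose by 1.32 ± 0.23 and Blmh, a protease of filaggrin breakdown, by 1.25 ± 0.26.

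The 2 that fell in type II, a share near that of everything tested, were Casp14 and Padi1. Casp14, the caspase of cornification, fell by 2.07 ± 0.50 (adjusted p = 0.00719), and Padi1, which citrullinates keratins and filaggrin, fell by 1.83 ± 0.40 (0.00394).

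Of 18 listed transcription factors of epidermal differentiation, 14 were measured: 8 rose in type I (median 0.77), 7 rose in type II (median 0.57) and 0 fell in either. Of everything tested, 12.2% was called higher and 15.6% lower in type I, and 15.6% and 21.8% in type II. Grhl3, a factor of barrier formation, rose by 2.53 ± 0.22 and 2.26 ± 0.22 (adjusted p = 9.34e-06 and 1.82e-05). Zfp750, a factor of terminal differentiation, rose by 1.80 ± 0.17 and 1.56 ± 0.17, and the AP-1 subunit Junb by 2.42 ± 0.25 and 3.03 ± 0.25. Grhl1 rose by 1.68 ± 0.18 in type I, and Nfe2l2, the antioxidant factor NRF2, by 1.69 ± 0.23 in type II.

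Markers of the cell types in back skin moved with the knockouts as well. Of the 11 measured keratinocyte markers, 8 rose in each knockout (median 1.07 in type I and 1.04 in type II), against 12.2% and 15.6% of everything tested. Of 10 fibroblast markers 7 fell in type I and 5 in type II, of 6 adipocyte markers 5 and 4, and of 9 skeletal muscle markers 5 and 8, where 15.6% of everything tested was called lower in type I and 21.8% in type II. The log2 of the summed signal of the fibroblast markers was 15.92 to 16.04 in wild type I and 15.36 to 15.59 in the type I knockout. In wild type II it was 15.91 to 15.92, and in the type II knockout 15.29 to 15.57. For muscle it was 16.48 to 16.70, 16.06 to 16.18, 16.41 to 16.64 and 14.89 to 15.89 in the same order. For adipocytes it was 11.08 to 12.51, 10.20 to 10.69, 11.85 to 12.36 and 9.73 to 11.65. Of the 4 measured melanocyte markers, 3 fell in type II and 0 in type I, none of the 5 endothelial markers was called, and 1 of 3 immune cell markers fell in type II, a share near that of everything tested. The part of tissue makeup in the Lce1 changes was not tested.

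The genes whose profile over the 12 arrays was most like the members' mean were an unnamed probe (ILMN_1234820, Pearson r = 0.981), Aif1l (0.968), Wnt3a (0.961), Tor1b (0.960) and Gsta2 (0.958). The members themselves had r from 0.890 (Lce1m) to 0.995 (Lce1i). Each member is part of that mean, which raises its r, so these values do not compare evenly with those of other genes. Flg2, Hrnr and Lor, which are not part of it, had 0.902, 0.898 and 0.867. The type II keratins Krt5 and Krt1 had higher values, 0.941 each, and the type I keratins Krt10 and Krt14 had -0.18 and -0.34. Aif1l, an actin-binding protein, changed by 0.41 ± 0.27 in type I and fell by 2.34 ± 0.27 in type II. Gsta2, a glutathione transferase, changed by -0.29 ± 0.31 and fell by 2.51 ± 0.31. Wnt3a, a secreted Wnt ligand, fell by 1.28 ± 0.23 in type II and the torsin Tor1b by 0.55 ± 0.12. These correlations are over 12 arrays in 4 groups, so a gene that is low in the type II knockout alone scores high.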

How the data were processed

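Illumina bead arrays measured RNA in 12 samples, grouped by title. The intensity values are the deposited non-normalized signals, which per the file headers come with a detection p-value for each probe; the sources used here give no scanner settings. Background was corrected by normexp with an offset of 16, from the deposited detection p-values, and arrays were quantile normalized on the log2 scale (limma 3.58.1, R 4.3.3). A probe entered with a detection p below 0.05 on at least 3 arrays (14744 of 25697), and the brightest probe stood for a gene, which left 10280 named genes and 883 unnamed probes. Of the probes, 23978 had 1 gene symbol in the platform annotation, 0 several and 1719 none. One limma model with 4 groups (8 residual degrees of freedom) gave each comparison, adjusted by Benjamini-Hochberg over all 11163; it was tested on simulated data. With 3 arrays per group, the array number limits precision.

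The authors' deposited processed values are linear intensities, background-subtracted and quantile normalized as far as their distribution shows, with array medians of 16.3 to 16.4 and about 25.2% below 0; they served as an alternative, as log2 after setting negatives to 0 and adding 16. They had been expected on a log2 scale.

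Members, gene lists and motifs were chosen with earlier results of these data known. Named were all members, the other measured Lce genes, up to 4 genes with the smallest p per list and knockout, the keratins of the label check, and the 5 nearest profiles. "At least" folds set the brighter group's mean against the lowest detected signal. Promoter identity came from global alignment (Biopython 1.88). Alternatives were the background, scaling, filter, probe, sample and block choices, and leaving out each array.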

Additional observations from a re-analysis of the deposited data

Results flagged for a closer look

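The change in the type II knockout differed from the change in the type I knockout, by the limma contrast of both, for 6 of the 9 Lce1 genes. The log2 differences (type II change minus type I change, 3 arrays per group) were -3.21 for Lce1a2, -3.11 for Lce1b, -3.92 for Lce1c, -3.33 for Lce1f, -3.85 for Lce1i and -3.47 for Lce1m. The adjusted p-values lay between 0.00243 (Lce1f) and 0.0103 (Lce1a2). Each of the 6 had all type II knockout arrays below all type I knockout arrays, as had 16% of everything tested. Lce1m was the only one of them that was also called in the type I knockout alone. The difference was also called lower for 8 of 21 other measured genes of the epidermal differentiation complex and for 1.85% of everything tested.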

How the results depend on the processing

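Across 22 alternatives for each knockout, the number of Lce1 genes called was the same as reported: 1 lower and 0 higher in type I, and 9 lower in type II. Lce1m in type I stayed between -3.09 and -2.50 (adjusted p 7.61e-05 to 0.00321). The median type I change ranged from -0.37 to -0.08 with arrays left out in turn. The median type II change of -3.36 ranged from -3.997 (without type II knockout replicate 1) to -2.99 with arrays left out in turn. Over all 22 alternatives it reached -2.88. The type II change of Lce1i ranged from -4.68 to -2.88 over all alternatives, and that of Lce1l from -4.06 to -2.16. With arrays left out these 2 reached only -3.59 and -2.57. The number of genes differing between knockouts was 6 to 9 over 21 alternatives: Lce1d, Lce1g and Lce1l were also called with the replicate number as a block (adjusted p 0.0357, 0.0176 and 0.0201), with the title number as a block (0.0200, 0.0102 and 0.0209) and without type II knockout replicate 1 (0.000588, 0.0134 and 0.0138). Over 19 alternatives for the wild types, 0 members were called lower except 1, Lce1g, with array weights (0.0311) and without type II knockout replicate 1 (0.0405).

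The labels do not say that the numbers pair samples. Deviations of same-numbered arrays from their group means correlated at 0.168, 0.0587 and 0.359 in the type I series and at 0.0820, 0.0281 and 0.141 in the type II series. The title numbers are the same split in type II; in type I, replicates 1 and 2 of both groups share 1 title number, and the mean deviations of each title number correlated at 0.359. Not every pair was over 0.1, so the numbers were not taken as pairing; the replicate block changed no call of a Lce1 gene in either knockout.

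With arrays left out in turn, uncalled values changed sign: the difference between knockouts ranged from -0.62 to 0.25 for Lce3b and from -0.81 to 0.077 for Lce3c, and the wild-type difference of Lce1m from -0.27 to 0.25. Median scaling moved the median of everything tested to -0.14 in type I and -0.17 in type II, from -0.11 and -0.08. Lce1h, Lce1e, Lce3a and, in the type II knockout, Lce1i and Lce1l lay near background, which limits their values. The cause of these shifts was not tested.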

Other observations

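The order of the type II knockout arrays was not the same for all genes that fell there. All 9 Lce1 genes were highest in replicate 1, whereas Lor (9.14, 11.59 and 7.79), Hrnr (6.45, 8.78 and 5.60), Flg2 (4.70, 5.36 and 4.44) and Casp14 (10.18, 12.27 and 9.60) were highest in replicate 2, as was the type I keratin Krt10 (12.29, 14.34 and 11.98). Of the Lce1 genes, Lce1m was at 8.15, 6.55 and 7.72 on the same arrays. These genes were picked after their values were seen, and the order was not tested.

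Lce3b had 3 probes, and the rises reported for it come from the brightest, ILMN_2941749, which was detected on all 12 arrays. The other 2, ILMN_2619519 and ILMN_2621158, were detected on 0 of 3 arrays of either wild type and on 3 of 3 of the type I knockout. In the type II knockout they were detected on 3 of 3 and 2 of 3 arrays. With every probe tested by itself, ILMN_2619519 rose by 7.19 in type I and 5.055 in type II, and ILMN_2621158 by 2.62 and 0.99. Their type II minus type I differences were -2.13 and -1.63 (limma adjusted p = 0.0702 and 0.0527), against -0.24 on the brightest probe. How like the 2 rises are thus depends on the probe, and the undetected wild types limit these values.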
